A study of Mus musculus with 3 samples.

Results

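The genes described here encode DNA damage signalling and repair proteins, 44 in all, fixed by name and sorted into 8 pathways. A platform gene symbol matched 43 of them among the 17742 genes on the array, and Msh3 was not analysed here. Each gene is given by its probe of highest mean intensity; 8 members had more than 1 probe. RNA came from cultured leukaemic cells of the myeloid lineage, grown from the bone marrow of BXH-2 mice. Sensitive cells were the parental line B117P (2 arrays). Resistant cells were B117HS (1 array), which was selected from B117P with rising doses of cytarabine (Ara-C) for about 10 weeks and had an IC50 about 10 times that of its parent. Both lines therefore share 1 origin, and B117HS stands for 1 selected population. The question was which repair and checkpoint transcripts differ between B117HS and B117P.

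Cytarabine is a deoxycytidine analogue that, once phosphorylated, is built into DNA and stalls the replication fork. Stalled forks activate the kinases Atr and Chek1, and broken forks activate Atm and Chek2. Breaks are then mended by homologous recombination, which copies an intact sister strand, or by end joining, which ligates the ends directly. Base excision, mismatch and nucleotide excision repair remove altered or mispaired nucleotides, the Fanconi anaemia proteins unhook crosslinks, and Mgmt takes alkyl groups directly off guanine.

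Each value is a background-subtracted probe intensity in array units, and differences are of log2(intensity + 50), resistant minus the mean of the sensitive arrays. A gene was called at a limma adjusted p (Benjamini-Hochberg over all genes) under 0.05 if it also lay at least 1 log2 unit above, or at least 1 below, both sensitive arrays. The resistant array was dimmer: its median intensity was 24.9 units against 58.4 and 72.5. Over 4341 probes of at least 500 units on every array its median log2 ratio to the sensitive mean was -0.57, so every call was repeated after that shift was divided out. "Rose" and "fell" are used below of genes called on both scales. Without such wording a call held on 1 scale only, which is then named. Whether the sensitive arrays hold separate cultures is not in the labels, so p-values reflect the spread of these arrays alone, possibly technical, and assume that the resistant array varies as they do. The 11 measured myeloid markers moved both ways. Spi1 and Csf3r fell (-2.06 and -1.78), and Itgam was called lower as deposited only (-1.89). Elane, Fcgr3 and Csf2rb rose by 4.96, 5.97 and 2.70, Cebpa was called higher after scaling only (1.52), and Mpo, Prtn3 and Kit, not called, differed by at most 0.05 as deposited. The myeloid sum, 102629 and 113843 units in the sensitive replicates and 138877 in resistant cells, was mostly Mpo. The 6 T cell markers summed to 676, 571 and 129 units on sensitive replicates 1 and 2 and the resistant array. Of these Cd3d was at most 5.28 units throughout, Cd3e read 272, 223 and 90.2 units, and Cd5 fell by 2.52. The 6 B cell markers summed to 2262, 2333 and 420.0 units in the same order, with Cd79b and Cd22 falling and Ebf1 rising by 1.59. The part of these markers in the repair gene differences was not tested.

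Most repair genes lay lower in the resistant cells, as did most genes on the array. Among them 8 genes fell (Brca1, Nbn, Fanca, Fancc, Exo1, Xrcc1, Parp1 and Xrcc5) and 2 rose (Prkdc and Mgmt). Another 5 were called lower on the deposited scale only, and Lig4 was called higher on the scaled values only. As deposited, 13 of 43 members were called lower, where 18.5% of all genes were, and 2 higher, where 5.23% were. On both scales 8 were lower and 2 higher, where 10.4% and 5.2% of all genes were. On the scaled values alone, 8 were lower and 3 higher, against 10.4% and 8.38% of all genes. Most members were bright, which bears on these shares. Among genes averaging 100 units or more over the 3 arrays, 32.4% were called lower as deposited and 17.7% on both scales. Of the 37 members of that brightness 11 (29.7%) and 6 (16.2%) were. In the other direction 8.65% of those genes were called higher as deposited and 8.59% on both scales, and 1 of the 37 members, Prkdc, was. With the 100 units asked of each sensitive array instead, a rule that favours genes that fell, the lower shares were 34.9% and 19.3% of genes and 12 and 7 of 38 members.

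The median difference over the 43 members was -0.57 on the deposited log2 scale, against -0.33 for all genes and -0.70 for genes averaging at least 100 units. After scaling it was -0.16, against -0.14 and -0.20. The resistant array lay below both sensitive arrays for 37 members, above both for 4 (Ogg1, Lig4, Prkdc and Mgmt) and between them for 2 (Atr and Ung). Over all genes 68.4% lay below both and 20.8% above both. Among genes averaging at least 100 units 71.5% lay below both, as did 33 of the 37 members of that brightness (89.2%). The sensitive arrays differed from each other by a median of 0.14 log2 units over the members.

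**Figure D1:**
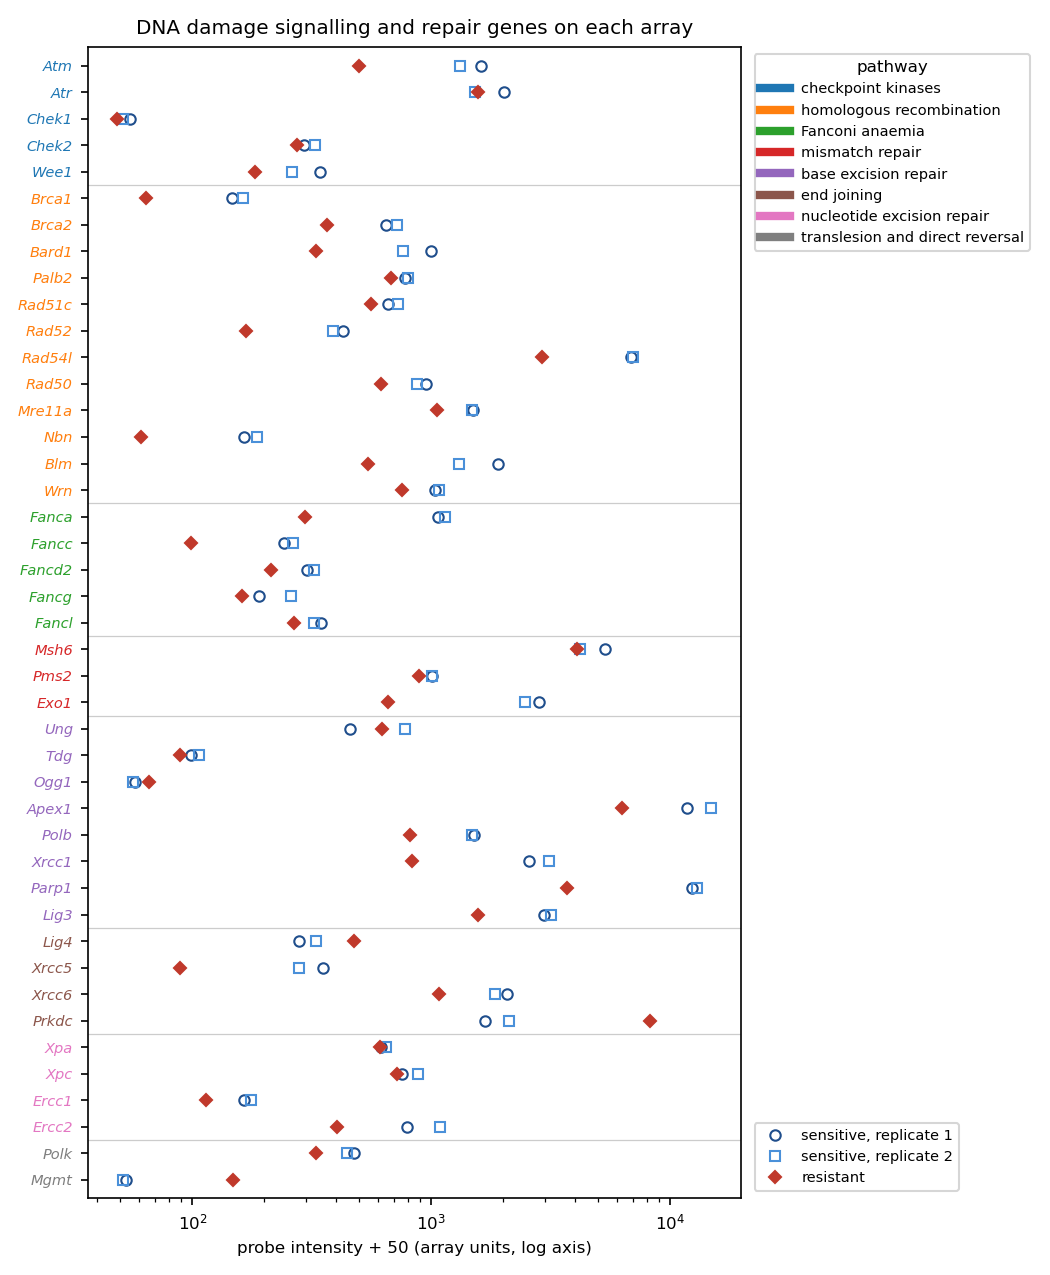
Intensity plus 50 array units (log axis) of the 43 measured repair genes, with 2 sensitive arrays (open symbols) and the resistant array (red diamonds). Gene names are coloured by pathway. Most red diamonds lie to the left of both open symbols, while Prkdc, Lig4 and Mgmt lie to the right, and Chek1 and Ogg1 sit near the offset on all 3 arrays.

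**Figure D2:**
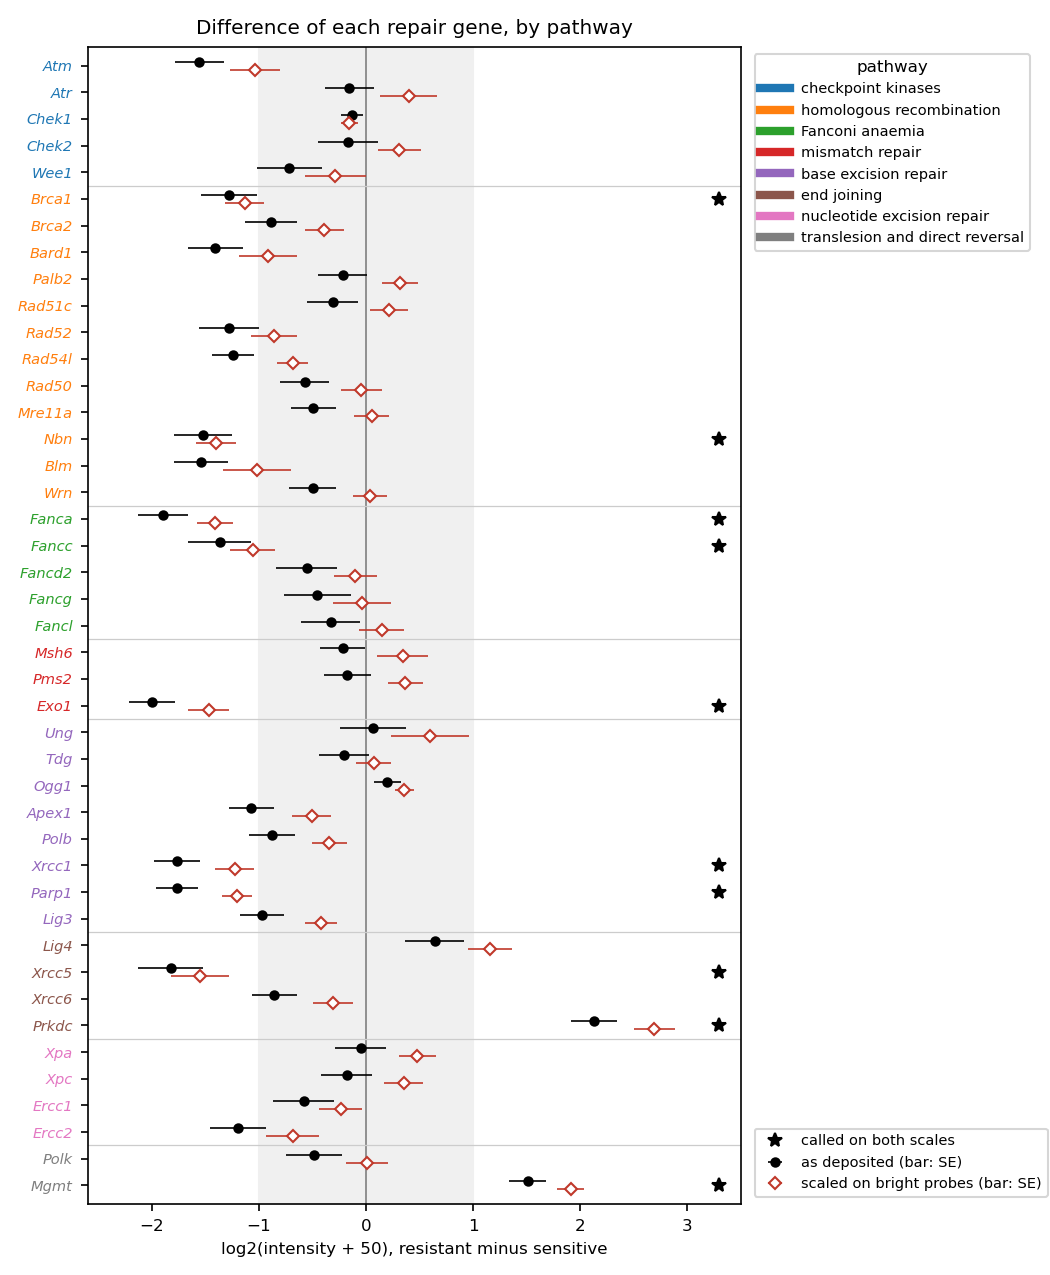
Log2 difference of the resistant array from the sensitive mean for each repair gene, as deposited (black) and scaled on bright probes (red), with bars of 1 SE from limma and stars for genes called on both scales. The grey band marks differences under 1. The column of stars at the right edge marks 8 genes whose points lie left of the band, with Prkdc and Mgmt to its right.

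The 4 end joining genes differed in direction: Prkdc rose and Xrcc5 fell. This pathway joins broken ends: the Ku heterodimer of Xrcc5 (Ku80) and Xrcc6 (Ku70) binds the ends, Prkdc is the catalytic subunit of the DNA-dependent kinase that Ku recruits, and Lig4 seals the break. Prkdc read 1623 and 2071 units in the sensitive replicates and 8193 in resistant cells. It rose to 4.44 times the sensitive mean, a difference of 2.13 log2 units (SE 0.22, limma adjusted p = 9.94e-06) and of 2.69 after scaling. Xrcc5 read 302 and 231 units in the sensitive replicates and 38.9 in resistant cells, far below both. It fell to 14.6% of the sensitive mean (-1.82, SE 0.30, limma adjusted p = 4.24e-04; -1.55 after scaling). Its partner Xrcc6 read 2019 and 1793 units in the sensitive replicates and 1029.8 in resistant cells and was not called (-0.85 as deposited, -0.31 after scaling). Lig4 read 229 and 279.6 units in the sensitive replicates and 423 in resistant cells. The Lig4 difference was 0.64 as deposited (limma adjusted p = 0.0709), without a call, and 1.16 after scaling (limma adjusted p = 0.0319), where it was called higher. Prkdc and Lig4 lay above both sensitive arrays, as did 20.8% of all genes. Xrcc5 and Xrcc6 lay below both, as did 68.4%. Only Prkdc and Xrcc5 were called on both scales. Of 8 other end joining genes 7 lay below both sensitive arrays. As deposited 2 of the 8 were called lower and 0 higher, where 18.5% and 5.23% of all genes were. On both scales 1 was lower, where 10.4% of all genes were. Over genes averaging at least 100 units the lower shares were 32.4% and 17.7%.

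The genes on either side of Prkdc did not share its direction. Mcm4, a subunit of the replicative helicase, read 7642 and 6550.3 units in the parent and 3380.2 in B117HS, a difference of -1.05 log2 units without a call. Mzt2, the neighbour on the other side, differed by -1.13 and was called lower as deposited only. The Lig4 start lies 37 bases from that of Abhd13, which is transcribed the opposite way. Abhd13, which encodes a predicted hydrolase, read 212 and 193 units in the sensitive replicates and 565 in resistant cells. It rose by 1.28 (SE 0.27, limma adjusted p = 0.00211), the same direction as the Lig4 difference. The stretches before the starts of the Ku genes and Lig4 are shown because these members of 1 pathway differed in direction. They come from RefSeq on GRCm38.p6, 5′ to 3′ on each gene's own strand, and end at the base before the start. Where a gene is transcribed away from a close neighbour, as Xrcc6 is from Desi1 and Lig4 from Abhd13, the run begins after the neighbour's start. Xrcc5 is chr1:72307171-72307420 (plus strand), Xrcc6 is chr15:82016221-82016368 (plus strand) and Lig4 is chr8:9977681-9977716 (minus strand). Capitals mark letters of an E2F site, the binding site of the factors that drive S phase genes, in 1 of 4 forms searched on both strands: TTTCCCGC, TTTGGCGC, TTTCGCGC and TTTGCCGC.
Xrcc5: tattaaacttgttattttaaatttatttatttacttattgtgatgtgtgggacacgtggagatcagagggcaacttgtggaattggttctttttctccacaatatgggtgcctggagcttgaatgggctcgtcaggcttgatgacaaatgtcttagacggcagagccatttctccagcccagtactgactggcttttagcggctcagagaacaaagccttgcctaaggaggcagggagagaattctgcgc
Xrcc6: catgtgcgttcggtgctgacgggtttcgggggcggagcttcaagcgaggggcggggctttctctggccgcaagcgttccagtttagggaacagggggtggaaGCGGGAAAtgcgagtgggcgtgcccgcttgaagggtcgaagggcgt
Lig4: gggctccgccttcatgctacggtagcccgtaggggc

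In direct reversal and translesion synthesis, Mgmt rose and Polk was not called. Mgmt, the methyltransferase that removes alkyl groups from guanine, read 2.48, 1.32 and 98.0 units on sensitive replicates 1 and 2 and the resistant array. The difference was 1.51 log2 units (SE 0.17, limma adjusted p = 2.39e-05) and 1.91 after scaling. The sensitive values were near 0, so the size depends on the offset. With offsets of 16 and 100 in place of 50 it was 2.67 and 0.96, the last without a call. Polk, a translesion polymerase of the Y family, read 424, 396 and 278 units on sensitive replicates 1 and 2 and the resistant array (difference -0.48). After scaling the Polk difference was 0.01.

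The single-strand break repair genes Parp1 and Xrcc1 both fell, while the glycosylase genes were not called. Parp1 and Xrcc1 were 2 of 8 members called lower, where 18.5% of all genes were as deposited and 10.4% on both scales. Base excision repair starts with a glycosylase that removes a damaged base. Apex1 then nicks the strand, Polb fills the gap, and Lig3, held by the scaffold Xrcc1, seals it. Parp1 senses the nick and draws Xrcc1 to it. Parp1 read 12345 and 12883 units in the sensitive replicates and 3669.6 in resistant cells. It fell to 29.1% of the sensitive mean, a difference of -1.77 log2 units (SE 0.20, limma adjusted p = 2.01e-05) and -1.21 after scaling. Xrcc1 read 2507 and 3071 units in the sensitive replicates and 781 in resistant cells, which is 28.0% of the sensitive mean. It fell by 1.77 (SE 0.22, limma adjusted p = 4.31e-05) with -1.23 after scaling. Under quantile normalization Xrcc1 was not called (-1.19), while Parp1 was (-1.48). On values scaled by probes averaging at least 500 units Xrcc1 also lost its call (-1.04), and Parp1 kept it (-1.01). The resistant value of either gene lay far below both sensitive arrays.

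Apex1 read 11793, 14817 and 6269 units on sensitive replicates 1 and 2 and the resistant array. The Apex1 difference of -1.07 was not called, since it was -0.91 from replicate 1. Lig3 read 2932, 3141 and 1523 units in the same order (-0.97), and Polb read 1466, 1432 and 765 units (-0.88). These 3 lay at about the same share of their sensitive level, between 47.1% and 52.8%, and after scaling their differences were -0.51, -0.42 and -0.34. Ung, the uracil glycosylase, lay between the sensitive arrays (0.07). Tdg, the thymine glycosylase, differed by -0.21, and Ogg1, which removes oxidised guanine, read at most 15.6 units, too dim to place. Beyond the members, 16 other genes of base excision and strand break repair were measured, of which 5 were called lower as deposited and Parp2 fell on both scales. Over all genes the shares were 18.5% and 10.4%, and over genes averaging at least 100 units 32.4% and 17.7%. Parp2, the second strand break sensor, went from 6781 ± 952 (SD, n = 2) to 1210.2 units (-2.43). The stretch before the Parp1 start, chr1:180568641-180568890 (plus strand, GRCm38.p6, RefSeq), is shown for comparison with the Ku genes and held none of the E2F letters.
Parp1: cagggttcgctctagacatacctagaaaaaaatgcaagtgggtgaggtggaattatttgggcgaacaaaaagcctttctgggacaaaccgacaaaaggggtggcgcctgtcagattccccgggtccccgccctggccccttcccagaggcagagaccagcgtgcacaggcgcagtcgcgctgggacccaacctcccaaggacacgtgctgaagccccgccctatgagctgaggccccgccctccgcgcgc

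In homologous recombination, the longest list, 6 of 12 members were called lower as deposited and 2 of these fell on both scales. Of all genes 18.5% and 10.4% were, and of genes averaging at least 100 units 32.4% and 17.7%. The 2 that fell, Brca1 and Nbn, averaged below 100 units and so lie outside that brighter set. Brca1 and Bard1 form the ubiquitin ligase that directs resection, Palb2 and Brca2 load the recombinase, Rad52 and Rad54l assist strand exchange, Rad51c belongs to a paralogue complex that stabilises the filament, and Mre11a, Rad50 and Nbn form the complex that first trims the ends. Blm and Wrn are RecQ helicases that unwind recombination intermediates. Nbn read 114 and 136 units in the sensitive replicates and 10.9 in resistant cells. The resistant value was near background, and the difference was -1.52 log2 units (SE 0.27, limma adjusted p = 6.74e-04; -1.40 after scaling). Brca1 read 96.9 and 113 units in the sensitive replicates and 14.0 in resistant cells. It fell by 1.28 (SE 0.26, limma adjusted p = 0.00175; -1.13 after scaling). Both probes were dim, at or below 136 units in sensitive cells, and the size of either fall depends on the offset. With offsets of 16 and 100 in place of 50, Nbn differed by -2.39 and -1.02 and Brca1 by -2.01 and -0.85, and at 100 neither was called.

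The 4 others were called lower as deposited only. Bard1 read 950.4, 715 and 280.0 units on sensitive replicates 1 and 2 and the resistant array, with differences of -1.41 as deposited and -0.91 after scaling. Blm read 1854, 1259.7 and 493 units in that order (-1.54 and -1.02). These 2 had higher values on sensitive replicate 1 than on replicate 2. Rad54l read 6799.7, 6947 and 2873 units (-1.24 and -0.69). Rad52 read 378, 339 and 118 units (-1.28 and -0.86). Second probes disagreed for Rad52, at 229, 232 and 210.0 units (-0.11), and were dim for Blm, at most 33.0 units (-0.30). On the mean of probes neither was called (-0.69 for Rad52, -0.92 for Blm). All 4 chosen probes lay below both sensitive arrays, at 31.7% to 41.8% of the sensitive mean.

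The other members of the pathway were not called on either scale. The 2 partners of Nbn in the end-trimming complex were among them: Mre11a gave 1449.9, 1429.8 and 1009.6 units (-0.49) and Rad50 gave 902, 824 and 565 units (-0.57), again sensitive replicates first. Rad50 was at 65.4% of the sensitive mean and Mre11a at 70.1%. Wrn read 990.2, 1033 and 702 units (-0.50). Brca2 stood at 50.3% of its sensitive mean (-0.89), Palb2 at 85.2% (-0.21) and Rad51c at 79.1% (-0.31). After scaling the Wrn, Rad50 and Mre11a differences were between -0.04 and 0.05. Of 22 other recombination genes, 9 were called lower as deposited and 4 fell on both scales. Over all genes the shares were 18.5% and 10.4%, and over genes averaging at least 100 units 32.4% and 17.7%. Rad54b, a relative of Rad54l, fell from 2609.9 ± 262 (SD, n = 2) to 406 units (-2.54) and the helicase gene Recql5 fell by 1.61. Slx4, a scaffold for structure-specific nucleases, read 902, 949.7 and -10.9 units in the same order, a called difference of -4.64. The resistant Slx4 value was below 0, and no flags for failed spots were used here. The fourth, Rbbp8, read 14.9 and 15.8 units in the sensitive replicates and -23.3 in resistant cells. Its called difference of -1.29 thus rests on a value below 0 against sensitive readings near background. Dna2, a nuclease of resection, was called higher after scaling only (1.03 as deposited, 1.59 after scaling).

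The stretches before the starts of Bard1 and Brca2 are shown because both held E2F letters while only Bard1 was called as deposited. After scaling neither was called. Bard1 is chr1:71102973-71103222 (minus strand) and Brca2 is chr5:150522371-150522620 (plus strand), from RefSeq on GRCm38.p6, read on each gene's strand. Capitals mark the E2F letters and, in Bard1 alone, TTTGAA, the core of the element that represses cell cycle genes outside G2 and M phase.
Bard1: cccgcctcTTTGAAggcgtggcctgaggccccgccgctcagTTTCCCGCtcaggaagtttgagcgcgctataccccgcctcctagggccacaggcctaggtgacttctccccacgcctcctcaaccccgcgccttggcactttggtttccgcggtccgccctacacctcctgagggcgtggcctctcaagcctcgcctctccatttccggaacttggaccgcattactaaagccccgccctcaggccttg
Brca2: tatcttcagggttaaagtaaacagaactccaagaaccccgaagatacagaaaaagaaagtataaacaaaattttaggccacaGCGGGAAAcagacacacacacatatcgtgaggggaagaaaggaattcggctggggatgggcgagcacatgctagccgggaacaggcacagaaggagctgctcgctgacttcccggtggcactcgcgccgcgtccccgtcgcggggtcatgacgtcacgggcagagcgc

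Promoter windows of 250 bases before to 50 after the start were on hand for 35 members, 5 with more than 1 window. E2F letters in any of the 4 forms were found in 8 of them (22.9%) and in 704 of all 27025 genes with a window (2.6%). TTTGAA was found in 1 of the 35 (2.86%) and in 20.2% of all genes. The 4 forms can overlap, as 2 of them do in Msh3. Of the 8 members with E2F letters, 7 were measured, and as deposited they differed by -0.17 (Chek2), -0.22 (Msh6), -0.31 (Rad51c), -0.45 (Fancg), -0.85 (Xrcc6), -0.89 (Brca2) and -1.41 (Bard1). None of the 7 fell on both scales, and Bard1 was the only one called on the deposited scale. The windows of the members that fell and had one (Brca1, Fanca, Fancc, Xrcc1, Parp1 and Xrcc5) held none of the 4 forms.

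In the Fanconi anaemia pathway the core complex genes Fanca and Fancc fell and the other 3 members were not called. The core complex, with Fancl as its ubiquitin ligase, marks Fancd2 at a crosslinked fork. Fanca read 1016 and 1097 units in the sensitive replicates and 247 in resistant cells. It fell to 23.4% of the sensitive mean, a difference of -1.90 log2 units (SE 0.23, limma adjusted p = 4.23e-05; -1.41 after scaling). Fancc read 191 and 215 units in the sensitive replicates and 48.2 in resistant cells. It fell by 1.36 (SE 0.30, limma adjusted p = 0.00251; -1.06 after scaling), and a second, dimmer Fancc probe differed by -1.16. With an offset of 100 the Fancc difference of -1.03 was not called. The shares of the sensitive mean were close, 23.4% and 23.7%. Fancl read 297, 273 and 216 units on sensitive replicates 1 and 2 and the resistant array (-0.33). Fancd2 read 252, 274 and 163 units (-0.55) and Fancg, another core subunit, 140.4, 208 and 112 units (-0.45). These 3 lay below both sensitive arrays and within 0.15 log2 units of the sensitive mean on the scaled values. Among 11 other genes of the pathway, 4 were called lower as deposited and the core complex gene Faap100 fell on both scales (from 599 ± 33.5 (SD, n = 2) to 118 units, -1.95). Over all genes the shares were 18.5% and 10.4%, and over genes averaging at least 100 units 32.4% and 17.7%. Fance, also a core subunit, was called higher after scaling only (0.66 as deposited, 1.21 after scaling).

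Of the 3 measured mismatch repair members, Exo1 fell and Msh6 and Pms2 were not called. Msh6 recognises mismatches, Pms2 nicks the strand beside them and Exo1 is the exonuclease that removes it. Exo1 also resects broken ends. Exo1 read 2771 and 2416 units in the sensitive replicates and 609.8 in resistant cells. It fell to 23.5% of the sensitive mean, a difference of -1.999 log2 units (SE 0.21, limma adjusted p = 1.43e-05; -1.47 after scaling). Its second probe read 133, 121 and 91.8 units and differed by -0.32, and on the mean of both Exo1 differed by -1.16. Msh6 read 5289, 4156 and 4023 units on sensitive replicates 1 and 2 and the resistant array (-0.22), with the resistant value close to replicate 2. A dimmer Msh6 probe disagreed: it read 517, 445 and 59.1 units, a difference of -2.28, and on the mean of both Msh6 was called lower (-1.25). Pms2 read 957, 958 and 843 units (-0.17). Of 4 other mismatch repair genes, Pms1 and the meiotic gene Msh5 fell, by 1.60 and 2.90. On both scales 10.4% of all genes and 17.7% of those averaging at least 100 units were called lower.

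Nucleotide excision repair had no member called on either scale in limma, and 1 of its 4, Ercc2, was lower as deposited at an unadjusted p under 0.05, where 44.8% of all genes were. In this pathway Xpc finds distorted DNA, Xpa verifies it, Ercc2 is a helicase of the opening complex and Ercc1 is part of the nuclease that cuts out the strand. Xpc read 706, 829.7 and 669 units on sensitive replicates 1 and 2 and the resistant array (-0.18), and Xpa read 569, 595 and 560.0 units (-0.05). They were at 87.1% and 96.2% of their sensitive mean, and after scaling they differed by 0.35 and 0.48 without a call. Ercc2 read 740.5, 1034 and 355 units. The Ercc2 difference of -1.19 missed the call because it was -0.97 from replicate 1. Ercc1 differed by -0.58. Of 16 other genes of the pathway 6 were called lower as deposited, where 18.5% of all genes and 32.4% of those averaging at least 100 units were. On both scales 2 fell, where the shares were 10.4% and 17.7%. They were Ddb2, which finds ultraviolet damage, and Gtf2h3, a subunit of the opening complex. Ddb2 went from 355 ± 11.4 (SD, n = 2) to 46.7 units (-2.07), and Gtf2h3 from 159 ± 10.3 to 15.6 (-1.67).

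No checkpoint kinase fell on both scales in limma, while 2 of the 5 were lower as deposited at an unadjusted p under 0.05, against 44.8% of all genes. Atm, the kinase of double-strand breaks, read 1574 and 1269 units in the sensitive replicates and 448 in resistant cells, a difference of -1.56 log2 units (SE 0.23, limma adjusted p = 1.81e-04) that was called as deposited only (-1.04 after scaling). A second Atm probe differed by -1.11. Atr, the kinase of stalled forks, read 1965, 1476 and 1526 units on sensitive replicates 1 and 2 and the resistant array (-0.15), so the resistant value lay between the others. Atm and Atr stood at 31.5% and 88.7% of their own sensitive means in resistant cells. Chek2, the effector kinase of Atm, read 245, 276 and 226 units (-0.17), and Wee1, which restrains entry into mitosis, 293, 211 and 132 units (-0.72). Chek1, the effector kinase of Atr, read at most 4.97 units on any array, so its probe gave no usable level. Of 16 other checkpoint genes 5 were called lower as deposited, where 18.5% of all genes and 32.4% of those averaging at least 100 units were. On both scales these shares were 10.4% and 17.7%. Tipin, a fork protection gene, fell on both scales, from 3508 ± 828 (SD, n = 2) to 880.4 units (-1.92).

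Across the 8 pathways the wider set held 102 other measured repair genes. As deposited 35 of them were called lower and 0 higher, where 18.5% and 5.23% of all genes were. On both scales 14 were lower and 0 higher, where 10.4% and 5.2% of all genes were. At an unadjusted limma p under 0.05, 61 were lower and 3 higher as deposited, where 44.8% and 10.2% of all genes were. The median difference of the wider set, dim genes included, was -0.74 as deposited and -0.28 after scaling. Over all genes it was -0.33 and -0.14, and over genes averaging at least 100 units -0.70 and -0.20. Of the 86 other repair genes of that brightness, 39.5% were called lower as deposited and 15.1% on both scales, against 32.4% and 17.7% of all such genes. Beside those already named, the end joining nuclease gene Dclre1c fell from 184 ± 0.556 (SD, n = 2) to 18.7 units (-1.77). The translesion polymerase genes Poli (-3.13) and Rev1 (-1.94) also fell. They were 2 of 9 other genes of that pathway, where 10.4% of all genes were called lower on both scales. Among genes averaging at least 100 units 17.7% were. Dclre1c and Poli had 2 probes each, and the brighter is given. Their resistant values, 18.7 and 15.6 units, were near background, so the sizes depend on the offset. Among 13 proliferation markers 6 were called lower as deposited and 0 on both scales in limma, where 18.5% and 10.4% of all genes were. Over genes averaging at least 100 units these shares were 32.4% and 17.7%. After scaling 7 were lower at an unadjusted limma p under 0.05, as were 29.4% of all genes, and 2 were higher. These 2, Ccna2 and Cdk1 (a dim probe), lay above both sensitive arrays, as did 20.8% of all genes. Neither was called higher after scaling, where 8.38% of all genes were. Ccna2 read 2275, 2481 and 2873 units and Cdk1 37.3, 51.4 and 84.0 units on sensitive replicates 1 and 2 and the resistant array. The median of the 13 markers was -1.05 as deposited and -0.51 after scaling. Their summed intensity was 57238 and 59832 units in the sensitive replicates and 29137 in resistant cells. Their part in the repair gene differences was not tested.

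**Figure D3:**
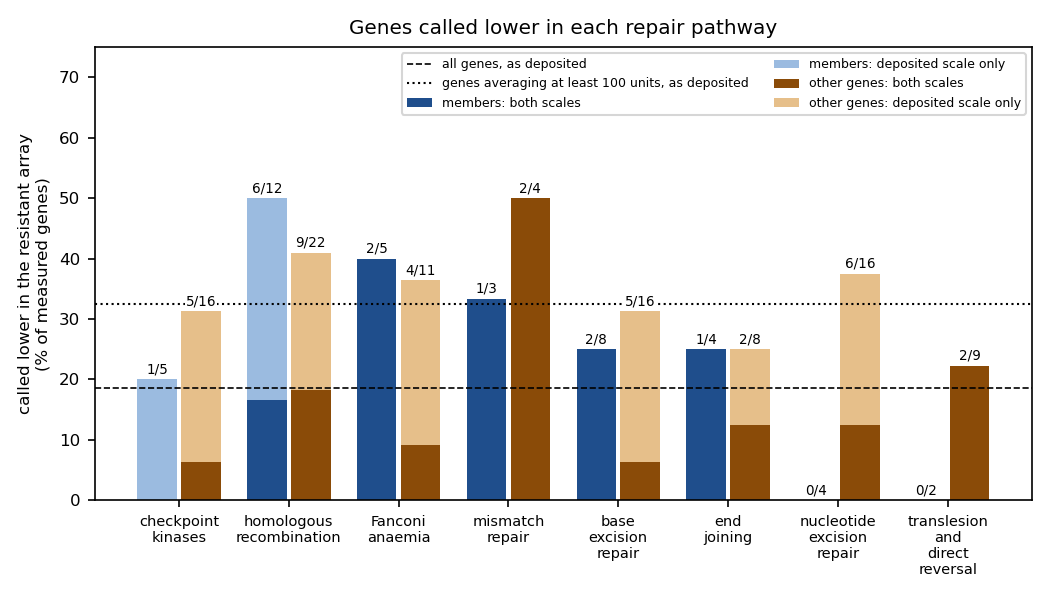
Share of measured genes called lower in the resistant array, in percent, for the members (blue) and the other repair genes (brown) of each pathway. Dark parts were called on both scales, pale parts as deposited only, and numbers give genes called lower as deposited over genes measured. Dashed and dotted lines mark 18.5% of all genes and 32.4% of genes averaging 100 units or more over the 3 arrays. The bars also hold dimmer genes, which the dotted line leaves out. Homologous recombination stands at 6 of 12 members.

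Several repair genes start next to a gene transcribed the other way, and the pairs often differed in size. As deposited most pairs shared a sign, and only Rad51c differed in the opposite direction to a called neighbour. A start within 1000 bases of a divergent neighbour's was found for 14 members, and both genes were measured in 12 pairs. Apex1 and Osgep, a tRNA modification gene, start 56 bases apart. Osgep read 2603 and 2463 units in the sensitive replicates and 308 in resistant cells and fell by 2.85, where Apex1 differed by -1.07. Rad51c and Tex14, a gene of the germ cell bridge, start 111 bases apart. Tex14 read 64.6 and 76.5 units in the sensitive replicates and 919 in resistant cells and rose by 3.01, where Rad51c differed by -0.31. Pms2 and Aimp2, a gene of the tRNA synthetase complex, start 162 bases apart, and Aimp2 fell by 1.69, where Pms2 differed by -0.17. Brca1 and Nbr1, an autophagy receptor gene, differed by -1.28 and -1.11 as deposited and by -1.13 and -0.60 after scaling. Nbr1 was called as deposited only. The Brca1 probe was dim, so the size of its difference depends on the offset, and Nbr1 was brighter (876, 807 and 362 units). Atm differed by -1.56 and its neighbour Npat, a histone gene activator, by -0.21. These pairs were looked up with the member values known, and no test was made of whether pairs move together.

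**Figure D4:**
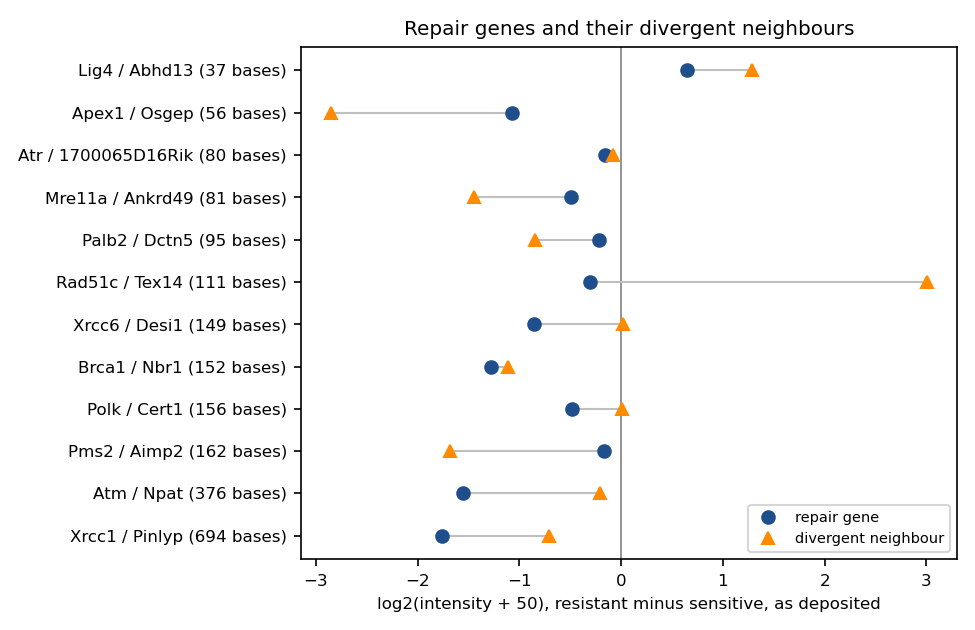
Log2 difference as deposited of 12 repair genes (blue circles) and their divergent neighbours (orange triangles), ordered by the number of bases between the 2 starts on GRCm38.p6. The symbols nearly meet for Brca1 and Nbr1 on this scale, though not after scaling (-1.13 and -0.60). They lie far apart for Rad51c and Tex14 and for Apex1 and Osgep.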

How the data were processed

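Per the labels' protocols, total RNA was amplified by an Eberwine method and the amino-allyl product carried Cy5 (1 colour). The authors deposited a table of 26423 probes with a linear intensity for each of the 3 arrays. It holds values below 0, so a background had been subtracted. For the scanner, its software and the scaling, nothing is given in the sources used here, and no spot flags were used. Groups and replicates came from the sample titles.

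Platform symbols named 20377 probes, of which 18213 matched a current mouse gene, 2126 an older name and 38 none. Intensities were taken as log2(intensity + 50). limma 3.58.1 in R 4.3.3 (lmFit, eBayes with a variance trend) compared resistant with sensitive over all 17742 genes, with 1 residual degree of freedom and a prior of 11.0 (2.64 on the scaled values). All 4212 genes past the size rule also passed the adjusted p. On simulated data (17742 genes, 10 simulations) 200 genes were changed, all of them above the median sensitive level. The fit found 85.3% of the changes of 1.5 log2 units and 99.4% of the changes of 2, and called 2.5 unchanged genes on average. Changes in dimmer genes were not simulated. The simulated arrays lacked the dimness of the resistant array, so these figures give no error rate for the calls.

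Members and lists were chosen with earlier results of these data known. Every member is named, with values on each array for those called on either scale and up to 3 uncalled ones a pathway, and of the wider set those called on both scales, at most 3 a pathway. The brightness minimum of 100 units, the divergent neighbours and the named genes beside them, and Rbbp8, Dna2 and Fance, were chosen after the values were seen. Alternatives were other scalings, offsets, a floor, a filter on dim genes, the mean of probes, other variance settings and thresholds, and leaving out each sensitive array. The other steps used Python 3.11.15 (numpy 2.4.6, pandas 2.3.3), and plots used matplotlib 3.10.9.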

Additional observations from a re-analysis of the deposited data

How the results depend on the processing

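As deposited, 13 members were called lower and 2 higher, 35 and 0 of the wider repair genes, and 3284 and 928 of all genes, with a member median of -0.57. Scaling on bright probes gave 8 members lower, 14 wider genes lower and 2 higher, 1854 genes lower and 1487 higher, and a member median of -0.16. Scaling on 6184 probes with a mean of at least 500 units, an alternative chosen after seeing the data with a shift of -0.76, gave 6, 11 and 4, 1513 and 1744, and -0.11. On that scale Fancc and Xrcc1 lost their calls, at -0.94 and -1.04. Quantile normalization gave 4 members lower, 10 wider genes lower and 2 higher, 1219 genes lower, and a median of -0.024. Median centring gave 4 members lower, 10 wider genes lower and 4 higher, 1273 and 1697 genes, and turned the member median to 0.052, where the median of all genes was 0.29. Those 2 settings both kept the calls of Fanca, Exo1, Parp1, Prkdc and Mgmt, and both called Lig4 higher (1.25 and 1.26). A floor of 50 left 0 members called in either direction, 0 wider genes lower, and 26 and 133 genes, with a median of -0.69. The limma prior there fell to 0.74 degrees of freedom, and 20 members were lower and 2 higher at an unadjusted p under 0.05. The mean of probes gave 12 members lower, without Rad52 and Blm and with Msh6. A log2 difference of 2 left 0 members lower and 0 higher, 6 wider genes lower, and 734 and 354 genes. A difference of 0.6 gave 5511 genes lower and 1 wider gene higher. An offset of 100 gave 10 members lower, without Brca1, Nbn and Fancc, 1 higher, without Mgmt, and a median of -0.47, and an offset of 16 gave 1 wider gene higher. Without 1 sensitive array, by size alone and with no test, 13 to 16 members were lower, 2 higher, 39 to 40 wider genes lower and 0 to 1 higher, 3625 to 4288 genes lower and 976 to 1108 higher, and the member median was -0.60 to -0.53. No paired analysis was possible because the resistant group had 1 array, with no replicate number. The resistant line has 1 array, so no setting checks its own spread, and probes near 0, as for Chek1 and Ogg1, limit what can be said of those genes.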
